A study of Populus ussuriensis with 18 samples.

Results

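The 8 transcripts described here encode proteins that move calcium across membranes in the roots of Populus ussuriensis, a poplar. They are the transcripts that the study listed as differentially expressed ion transport genes and that are annotated as a calcium pump, a calcium exchanger or a calcium-permeable channel. They make up 8 of the 12994 transcripts in the table, and all 8 passed the filter on low values that 12080 transcripts passed. Because the list was made from the comparison of treated roots with 0 h in these same samples, differences of these 8 from 0 h are given as a description. How many of them passed the limits of a test is stated beside the share of all transcripts that did, no p is given for them, and nothing is read from these counts.

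Roots of wild-type tissue culture seedlings aged 3 weeks were collected before treatment (0 h) and after 6, 12, 24, 48 or 120 h in liquid medium with 6% PEG 6000, a polymer that lowers the water available to roots. Each of the 6 times had 3 biological replicates, which gave 18 RNA-seq libraries, and each replicate was a pool of seedlings. The roots at 0 h were the only control. No seedlings were sampled in liquid medium without PEG, so an effect of PEG cannot be told apart from one of the transfer or of time.

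Calcium is kept scarce in the cytosol of plant cells and stored in the cell wall, the vacuole and the endoplasmic reticulum. When roots sense a lack of water, channels open and calcium flows in, which sets off signals that pumps and exchangers end by moving it out again. Pumps of the ACA type use ATP and are switched on by calmodulin, exchangers use a gradient of another ion, and channels of the CNGC and GLR types are opened by cyclic nucleotides and by amino acids, as known from Arabidopsis.

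The values are FPKM, that is, fragment numbers divided by transcript length and by the total mapped in a library. They added up to between 1067374 and 1159874 in a library, and the number of fragments behind them is not used here, so the precision rests on the spread between replicates. All 18 libraries lay nearest to the libraries of their own time. Replicate 3 at 48 h lay farthest from its own time over all transcripts, with a root mean square log2 difference of 0.57, against 0.41 to 0.54 in the 16 libraries other than it and replicate 1 at 120 h, which had 0.51. For the 8 transcripts, the median absolute log2 difference from the same time was 0.31 in replicate 3 at 48 h and 0.40 in replicate 1 at 120 h, against 0.05 to 0.21 in those 16. The levels of the 8 at 48 and 120 h are therefore given both with and without these 2 libraries, a choice made after the values were seen. The root label was checked at 0 h with transporters that take up ions in roots: high-affinity nitrate transporter 2.1 had 448 to 465 FPKM and potassium transporter 5 had 52.1 to 54.5 FPKM. At 12 h they had 23.4 to 26.8 and 8.35 to 9.51 FPKM, so the check covers the libraries of 0 h only. Transcripts of green tissue were present as well, since 17 of 18 photosystem and chlorophyll-binding transcripts had at least 1 FPKM in every library of 0 h.

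At 6 h the transcripts moved in opposite directions. The exchanger NCL and the pump ACA10 were 2.94 and 4.98 times their level at 0 h, while the vacuolar exchanger CAX3 and the glutamate receptor GLR2.7 were 7.27-fold and 8.61-fold lower. By 120 h the picture had changed: CCX1, CNGC2 and GLR3.6 were the transcripts with the highest levels relative to 0 h, at 4.24, 2.75 and 3.08 times, and ACA13 was 3.00-fold lower. A transcript was called a differentially expressed gene (DEG) at an adjusted p under 0.05 and an absolute log2 difference of at least 1, on log2(FPKM + 1). At 6 h, 2 of the 8 were called higher and 2 lower, against 7% and 5.34% of all transcripts tested. The counts were 2 and 1 at 12 h, against 5.73% and 3.59%. They were 1 and 1 at 24 h, against 4.43% and 1.81%, and also 1 and 1 at 48 h, against 3.23% and 1.85%. At 120 h they were 2 and 1, against 2.59% and 2.14%. Counted by libraries that did not overlap with those of 0 h, 4 were above and 2 below at 6 h (background 35% and 33.8%), 6 and 2 at 12 h (30.9% and 36.5%), 4 and 2 at 24 h (27.4% and 25.7%), 4 and 2 at 48 h (21.3% and 23.8%) and 4 and 3 at 120 h (20.4% and 26.7%). These shares describe a list that was chosen on this contrast and are not a result about it. In RNA from whole roots, fewer cells of a type and less RNA per cell cannot be told apart.

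**Figure D1:**
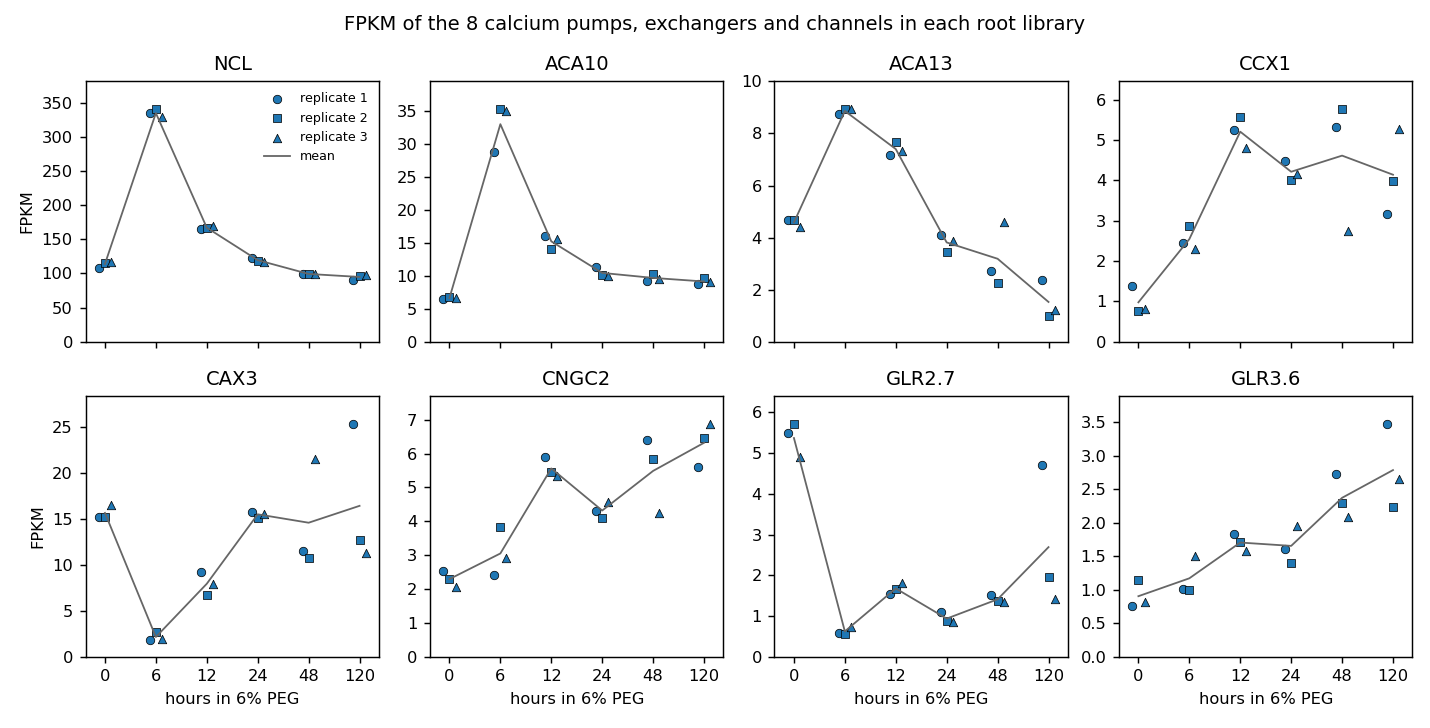
FPKM (linear axis from 0, a separate scale in each panel) of the 8 transcripts against hours in 6% PEG (times evenly spaced). Each point is 1 library, its shape gives the replicate, and the line joins the means of 3 replicates. NCL and ACA10 are highest at 6 h, CAX3 and GLR2.7 are lowest there, and CCX1, CNGC2 and GLR3.6 are above their 0 h libraries from 12 h on.

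NCL (f2p60_2293_3245), a sodium/calcium exchanger that in Arabidopsis exchanges sodium for calcium, was the most abundant of the 8 at every time. In replicates 1, 2 and 3, the order used for all values below, it had 109, 116 and 117 FPKM at 0 h and 335, 341 and 329 FPKM at 6 h. At 12 h it had 166, 166 and 169 FPKM, and at 24 h 123, 118 and 117 FPKM. The libraries of 6 and 12 h were all above those of 0 h, those of 24 h overlapped with them, and those of 48 h (98.5 to 99.7 FPKM) and 120 h (91.0 to 98.0 FPKM) were all below. Its mean placed it above 84.3% of all transcripts at 0 h and above 95.1% at 6 h. It was also very even between replicates, with a pooled SD of 0.04 on the log2 scale, against a median of 0.12 over all transcripts tested.

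ACA10 (f2p57_4009_433), a plasma membrane calcium-transporting ATPase, followed NCL in having its highest level at 6 h but stayed above its starting level. It had 6.43, 6.79 and 6.62 FPKM at 0 h, 28.7, 35.3 and 34.9 FPKM at 6 h, and 16.0, 14.0 and 15.6 FPKM at 12 h. Later the values were 11.3, 10.1 and 9.94 FPKM at 24 h, 9.23, 10.2 and 9.56 FPKM at 48 h and 8.71, 9.61 and 9.05 FPKM at 120 h. All 15 treated libraries were above all libraries of 0 h, and the log2 difference from 0 h reached 2.15 at 6 h and was still 1.09 at 12 h and 0.41 at 120 h.

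ACA13 (f2p20_3494_18605), annotated as a putative plasma membrane ATPase of the same family, had a smaller difference at 6 h and ended below its starting level. It had 4.68, 4.67 and 4.39 FPKM at 0 h and 8.73, 8.92 and 8.94 FPKM at 6 h, 1.94 times as much. At 24 h it had 4.11, 3.45 and 3.88 FPKM, all below 0 h, and at 120 h 2.36, 0.99 and 1.23 FPKM. At 48 h its libraries overlapped with those of 0 h, but only through replicate 3, which had 4.6 FPKM against 2.71 and 2.25 FPKM in replicates 1 and 2. Without replicate 1 the mean at 120 h was 1.11 FPKM, 4.13-fold below 0 h in place of 3.00-fold.

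The pumps thus differed in their balance over time. FPKM are scaled by length, so their ratio compares the levels of both transcripts. The log2 ratio of FPKM of ACA10 to ACA13 was 0.53 ± 0.07 (SD, n = 3) at 0 h, 1.89 ± 0.15 at 6 h, 1.04 ± 0.15 at 12 h and 2.68 ± 0.72 at 120 h. On FPKM + 1, the scale of the tests, it went from 0.45 at 0 h to 1.78 at 6 h and 2.04 at 120 h. Without replicate 1 the ratio of FPKM at 120 h was 3.08. The ratios of FPKM with nothing added were computed after the values had been seen.

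CAX3 (f4p60_1851_22830), a vacuolar exchanger that uses the proton gradient to load calcium into the vacuole, was 7.27-fold lower at 6 h and was back at its starting level by 24 h. It had 15.2, 15.3 and 16.6 FPKM at 0 h and 1.79, 2.75 and 1.93 FPKM at 6 h, a log2 difference of -2.41. The level was 9.24, 6.77 and 7.88 FPKM at 12 h and 15.8, 15.2 and 15.6 FPKM at 24 h. The libraries of 6 and 12 h were all below those of 0 h, and those of later times overlapped with them. The log2 difference of -0.90 at 12 h did not reach the fold minimum, but was -1.01 without replicate 1 of 12 h. At 48 h it had 11.5, 10.7 and 21.6 FPKM and at 120 h 25.4, 12.7 and 11.3 FPKM. The high values at these times come from the libraries that stood apart, and without them the means were 11.1 and 12.0 FPKM, 1.41-fold and 1.31-fold below 0 h.

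Markers of green tissue moved with CAX3 up to 24 h. The summed FPKM of the 18 photosystem and chlorophyll-binding transcripts was 2292 to 2390 at 0 h, 996 to 1092 at 6 h, 1595 to 1663 at 12 h and 2126 to 2439 at 24 h. It was 3085, 3063 and 3379 at 48 h and 4492, 3475 and 3424 at 120 h, so it too was highest in replicate 3 of 48 h and replicate 1 of 120 h. In the remaining 2 libraries of each of these times the sum was above its 0 h range while CAX3 was below its own. High-affinity nitrate transporter 2.1, a root transporter, was lowest within its time in the libraries that stood apart. It had 70.2 FPKM in replicate 3 of 48 h, against 247 and 245 FPKM in the other 2. In replicate 1 of 120 h it had 255 FPKM, against 438 and 439 FPKM. Its mean was also 18.1-fold lower at 12 h than at 0 h, so it varied over the course as well. A further root transporter, high-affinity nitrate transporter 2.4, had 20.25 to 78.9 FPKM at 48 h and 82.3 to 130 FPKM at 120 h. Its mean was 20.8-fold lower at 12 h than at 0 h. Potassium transporter 5, also named above, varied less within these times. It had 34.2 to 42.6 FPKM at 48 h and 52.8 to 64.4 FPKM at 120 h. The part of green tissue in the level of CAX3 was not tested.

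**Figure D2:**
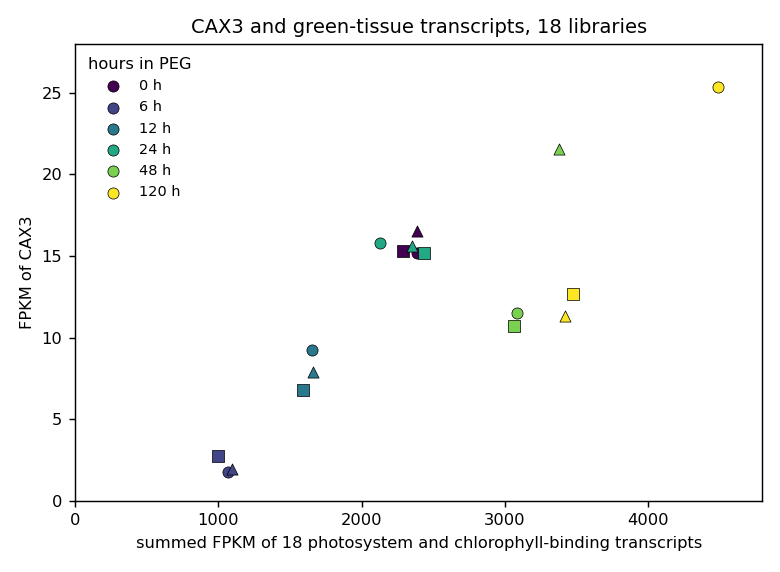
FPKM of CAX3 (vertical axis) against the summed FPKM of 18 photosystem and chlorophyll-binding transcripts (horizontal axis) in the 18 libraries. Colors give hours in PEG and shapes the replicate (circle 1, square 2, triangle 3). Both are lowest in the 6 h libraries, and within 48 h and 120 h the library with the highest CAX3 (21.6 and 25.4 FPKM) also has the highest sum.

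CCX1 (f3p60_1980_22126), annotated as cation/calcium exchanger 1, of an exchanger family separate from the vacuolar CAX proteins, went the other way from CAX3 and stayed up. It had 1.37, 0.75 and 0.81 FPKM at 0 h, 2.45, 2.87 and 2.31 FPKM at 6 h and 5.24, 5.57 and 4.81 FPKM at 12 h. At 24 h it had 4.47, 4.02 and 4.15 FPKM, at 48 h 5.33, 5.77 and 2.74 FPKM, and at 120 h 3.16, 3.98 and 5.28 FPKM. All 15 treated libraries were above all libraries of 0 h. The mean reached 5.33 times the 0 h level at 12 h, and at 48 h it was 4.72 times with all libraries and 5.68 times without replicate 3. The log2 difference from 0 h was 0.85 at 6 h and between 1.37 and 1.66 at the 4 later times. Since 2 of the 3 libraries of 0 h were below 1 FPKM, adding 1 before the log shrinks these values, and with 0.1 added the difference was 1.33 at 6 h and 2.34 at 12 h.

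Between these exchangers the order of levels changed. The log2 ratio of FPKM of CCX1 to CAX3 was -4.06 ± 0.51 (SD, n = 3) at 0 h, 0.26 ± 0.20 at 6 h, -0.60 ± 0.28 at 12 h and -1.88 ± 0.05 at 24 h. On FPKM + 1 it was -3.09 at 0 h and 0.18 at 6 h. CCX1 was thus the higher of the pair in every library of 6 h and the lower in every other library.

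CNGC2 (f2p37_2396_20662), a cyclic nucleotide-gated channel that lets calcium in and acts in immune signaling in Arabidopsis, was higher than at 0 h from 12 h on. It had 2.52, 2.30 and 2.06 FPKM at 0 h, 5.89, 5.45 and 5.34 FPKM at 12 h and 4.29, 4.10 and 4.56 FPKM at 24 h. It then had 6.39, 5.83 and 4.24 FPKM at 48 h and 5.61, 6.47 and 6.87 FPKM at 120 h. The libraries of 12, 24, 48 and 120 h were all above those of 0 h, whereas those of 6 h (2.42, 3.82 and 2.91 FPKM) overlapped with them. Its log2 difference was 1.15 at 120 h. At 12 h it was 0.9956, just short of the fold minimum, and it was 1.04, 1.01 and 1.02 without replicate 1 of 0 h, replicate 2 of 12 h and replicate 3 of 12 h. At 48 h it was 0.97 and reached 1.01 without replicate 1 of 0 h and 1.11 without replicate 3 of 48 h.

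GLR2.7 (f2p55_3201_1361), of the plant glutamate receptors, which are amino acid-gated channels that pass calcium, fell at 6 h and stayed low. It had 5.48, 5.71 and 4.91 FPKM at 0 h, 0.58, 0.55 and 0.74 FPKM at 6 h and 1.55, 1.67 and 1.81 FPKM at 12 h. The level was 1.09, 0.87 and 0.85 FPKM at 24 h, 1.51, 1.38 and 1.34 FPKM at 48 h and 4.70, 1.96 and 1.41 FPKM at 120 h. All 15 treated libraries were below all libraries of 0 h, and replicate 1 of 120 h came closest to them. The mean was 3.20-fold below 0 h at 12 h, 5.73-fold at 24 h and 3.81-fold at 48 h. At 120 h it was 1.99-fold below with all libraries and 3.19-fold below without replicate 1, and the log2 difference was -0.89 with it and -1.25 without it, past the fold minimum.

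GLR3.6 (f2p60_3228_18926), a glutamate receptor that takes part in wound signals between leaves in Arabidopsis, was the least abundant of the 8 at 0 h and had its higher values at 48 and 120 h. It had 0.75, 1.14 and 0.82 FPKM at 0 h, 1.83, 1.71 and 1.57 FPKM at 12 h and 1.61, 1.40 and 1.95 FPKM at 24 h. It had 2.72, 2.30 and 2.09 FPKM at 48 h and 3.47, 2.23 and 2.65 FPKM at 120 h. The libraries from 12 h on were all above those of 0 h, and those of 6 h (1.01, 1.00 and 1.5 FPKM) overlapped with them. Its log2 difference on FPKM + 1 stayed under the fold minimum at every time. At 120 h it was 0.98, and leaving out 1 library at a time gave 0.86 to 1.09, with the lowest value without replicate 1 of 120 h. It passed the minimum without replicate 2 of 0 h (1.07), replicate 2 of 120 h (1.09) or replicate 3 of 120 h (1.00). With 0.1 added before the log in place of 1 it was 1.52.

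The receptors changed places as well. The log2 ratio of FPKM of GLR3.6 to GLR2.7 was -2.59 ± 0.27 (SD, n = 3) at 0 h, 0.89 ± 0.11 at 6 h and 0.74 ± 0.10 at 48 h. At 12 h it was 0.02 ± 0.22 and at 120 h 0.22 ± 0.67, or 0.55 without replicate 1, so that at these times the pair did not differ by much more than its spread. On FPKM + 1 the ratio went from -1.75 at 0 h to 0.41 at 6 h and 0.12 at 120 h.

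The levels at the late times are given here without the libraries that stood apart, replicate 3 at 48 h and replicate 1 at 120 h. Relative to 0 h, CCX1 was then at 5.68 times at 48 h and 4.74 times at 120 h, CNGC2 at 2.66 and 2.91 times and GLR3.6 at 2.78 and 2.7 times. ACA10 was at 1.47 and 1.41 times, and NCL at 0.87 and 0.85 times. ACA13 was 1.85-fold and 4.13-fold below 0 h, CAX3 1.41-fold and 1.31-fold and GLR2.7 3.71-fold and 3.19-fold.

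**Figure D3:**
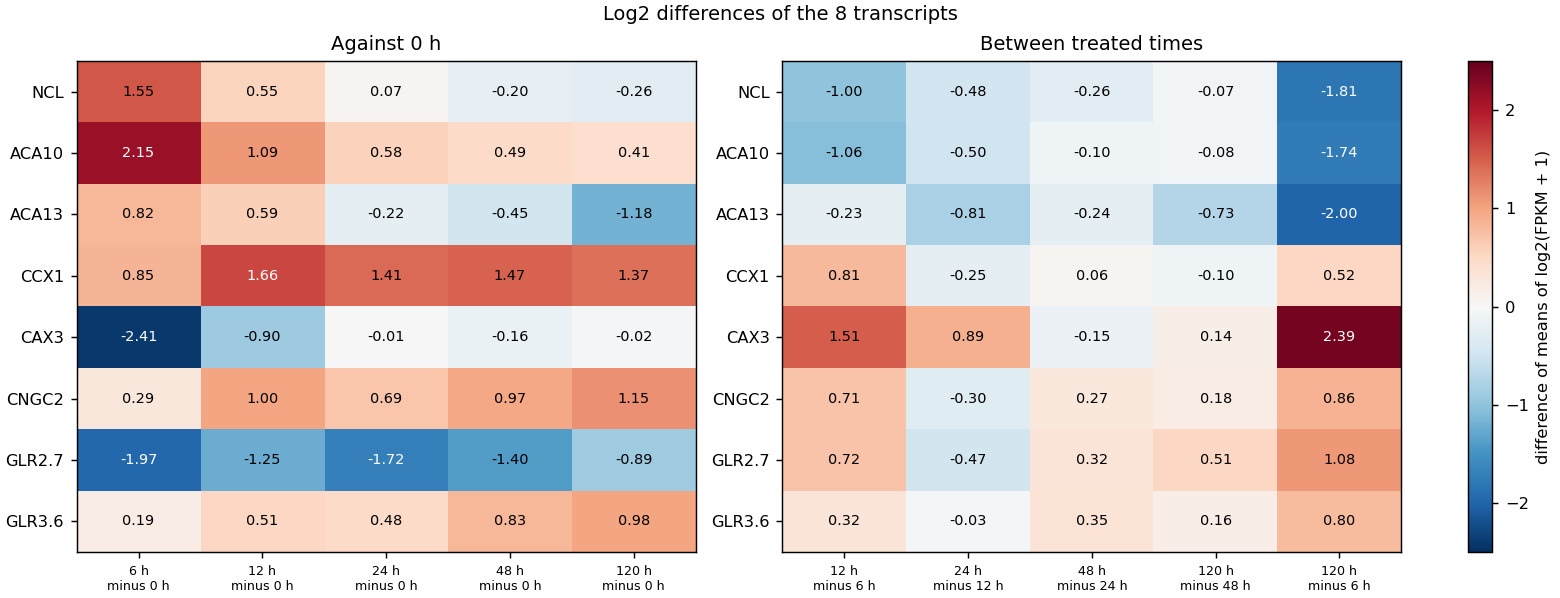
Difference of the means of log2(FPKM + 1) for each of the 8 transcripts, as numbers and colors (red higher, blue lower at the first-named time), against 0 h (left) and between treated times (right), 3 libraries per time. Against 0 h the values range from -2.41 (CAX3, 6 h) to 2.15 (ACA10, 6 h), and between treated times the 3 steps after 12 h hold smaller values than the step from 6 to 12 h for NCL, ACA10 and CAX3.

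The order of levels at 0 h was NCL, CAX3, ACA10, GLR2.7, ACA13, CNGC2, CCX1 and GLR3.6, with means from 114 ± 4.69 to 0.903 ± 0.208 FPKM (SD, n = 3). The neighbours CCX1 (0.977 ± 0.342 FPKM) and GLR3.6 overlapped and did not differ beyond their spread. At 120 h the order was NCL, CAX3, ACA10, CNGC2, CCX1, GLR3.6, GLR2.7 and ACA13. There CNGC2 had 6.32 ± 0.644 FPKM, and GLR3.6 with 2.78 ± 0.631 FPKM overlapped with GLR2.7 with 2.69 ± 1.76 FPKM. The neighbours CCX1 and GLR3.6, and GLR2.7 and ACA13, also overlapped at this time. The spread between replicates ran from a pooled log2 SD of 0.04 in NCL and 0.09 in ACA10 to 0.35 in CAX3.

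The treated times were also compared with each other, by limma in the fit of all 18 libraries. The treated libraries had entered the comparison that chose the list, so these tests are not fully independent of it. From 6 to 12 h ACA10 fell by 1.06 on the log2 scale (standard error 0.08, limma adjusted p = 1.8e-07), and all its 12 h libraries were below all its 6 h libraries. CAX3 rose by 1.51 (standard error 0.26, adjusted p = 3.4e-04) with no overlap. NCL, at -0.9993 (standard error 0.04, adjusted p = 3.6e-10), missed the fold minimum and was at -1.01 without replicate 3 of 6 h or without replicate 3 of 12 h. The count of 1 higher and 1 lower of 8 stood beside 2.49% and 1.64% of all transcripts.

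In the later steps 0 of the 8 passed both limits of limma's test, and 0 would pass if p were left unadjusted and the fold minimum kept. The background was 3.47% from 12 to 24 h, 1.81% from 24 to 48 h and 1.25% from 48 to 120 h. Without a fold minimum, 4 of the 8 had an adjusted p under 0.05 from 12 to 24 h, where NCL (-0.48), ACA10 (-0.50) and ACA13 (-0.81) fell further and CAX3 rose by 0.89 (background 18% higher and 14.8% lower). From 24 to 48 h this held for NCL alone (-0.26, background 11.2% lower), and from 48 to 120 h for ACA13 alone (-0.73, limma adjusted p = 0.027, background 6.61% lower).

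Over the whole treated course, 5 of the 8 passed both limits between 120 h and 6 h. NCL fell by 1.81 (standard error 0.04, limma adjusted p = 1.6e-13), ACA10 by 1.74 (standard error 0.08, adjusted p = 1.5e-10) and ACA13 by 2.0 (standard error 0.19, adjusted p = 3.2e-07), a sodium/calcium exchanger and both pumps. CAX3 rose by 2.39 (standard error 0.26, adjusted p = 1.6e-06) and GLR2.7 by 1.08 (standard error 0.24, adjusted p = 9.7e-04). For each of the 8, these 5 and the remaining ones alike, the libraries of 120 h and 6 h did not overlap (background 29.5% higher and 36.5% lower). Without replicate 1 of 120 h the value of GLR2.7 was 0.72 (adjusted p = 0.0014) and no longer reached the fold minimum, and without both libraries that stood apart CAX3 rose by 2.05, while NCL, ACA10 and ACA13 were at -1.78, -1.71 and -2.23. The channels CNGC2 (0.86, adjusted p = 9.5e-05) and GLR3.6 (0.80, adjusted p = 8.4e-04) and the exchanger CCX1 (0.52, adjusted p = 0.043) were higher at 120 h than at 6 h by less than the fold minimum, also without both libraries (0.94, 0.67 and 0.66). The 2 higher and 3 lower calls of 8 stood beside 6.13% and 7.71% of all transcripts.

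In limma's F test over the 5 treated times, 8 of the 8 varied, with adjusted p from 5.3e-13 for NCL to 0.027 for CCX1, but so did 72.5% of all transcripts tested. CCX1 lost this call without any 1 of the 6 h libraries or without replicate 1 or 2 of 12 h.

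The other pumps and channels of the same families in the annotation at hand differed from 0 h by less than the fold minimum, and those that passed the test without it were lower. This list holds 6 transcripts: ACA11, a calcium-transporting ATPase, ECA3, a pump of the endoplasmic reticulum type, and the channels CNGC1, CNGC20 and a pair annotated as CNGC5. The list leaves out the 8, which the study had listed as DEGs, so a low count of DEGs was partly set in advance. By limma 0 of 6 were DEGs at any time, and 0 would be with p left unadjusted (under 0.05). Over all transcripts the share was at most 7% higher and 5.34% lower, both at 6 h, so that a count of 0 among 6 is close to the background. By adjusted p with any fold, 5 of 6 were lower at 6 h, 12 h and 24 h, 3 at 48 h and 2 at 120 h, against 29.1, 29, 19.9, 14.7 and 17.9% of all transcripts, and 0 were higher at any time (at an unadjusted p under 0.05, ECA3 was higher at 6 h). Without both libraries that stood apart, 3 were lower at 48 h and 3 at 120 h. Their median log2 difference was -0.37 at 6 h and -0.20 at 120 h, against 0.01 and -0.04 over all transcripts. In size regardless of sign the median was 0.37 at 6 h and 0.45 at 24 h, against 0.36 and 0.23 over all transcripts.

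Among the channels, CNGC20 (f3p60_2778_19691) went from 26.5 ± 1.00 FPKM (SD, n = 3) before treatment to 14.9 ± 0.144 FPKM at 12 h, with a log2 difference of -0.79 (standard error 0.07, limma adjusted p = 1.5e-07). CNGC1 (f2p60_2740_19768) went from 25.0 ± 1.46 FPKM to 15.5 ± 1.37 FPKM at 6 h, with a log2 difference of -0.66 (standard error 0.07, adjusted p = 2.2e-06). Both had lower libraries than 0 h at all 5 times without overlap. The CNGC5 transcripts f2p34_3601_18468 and f2p16_2673_2336 were at -0.38 and -0.36 at 6 h and at -0.18 and -0.15 at 120 h, where neither passed. CNGC2, by contrast, had log2 differences of 0.29 (6 h) and 1.15 (120 h), and its mean of 2.29 FPKM at 0 h was lower than those of the other 4 channels, which ran from 19.5 to 44.7 FPKM. CNGC2 was among the listed DEGs, so a contrast with the rest was partly set by that choice. The difference in response between CNGC2 and these channels was not tested.

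Of the pumps, ACA11 (f9p60_3620_18492) started at 28.2 ± 1.81 FPKM (SD, n = 3) and was lowest at 24 h with 18.6 ± 0.609 FPKM, a log2 difference of -0.58 (standard error 0.09, limma adjusted p = 1.7e-04). ECA3 (f2p28_3480_18618) stayed between 11.5 and 17.5 FPKM in all libraries and passed at no time. At 0 h ACA11 was thus the most abundant of these ATPases, and at 6 h ACA10 was, with 32.96 ± 3.67 FPKM against 23.5 ± 1.89 FPKM.

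**Figure D4:**
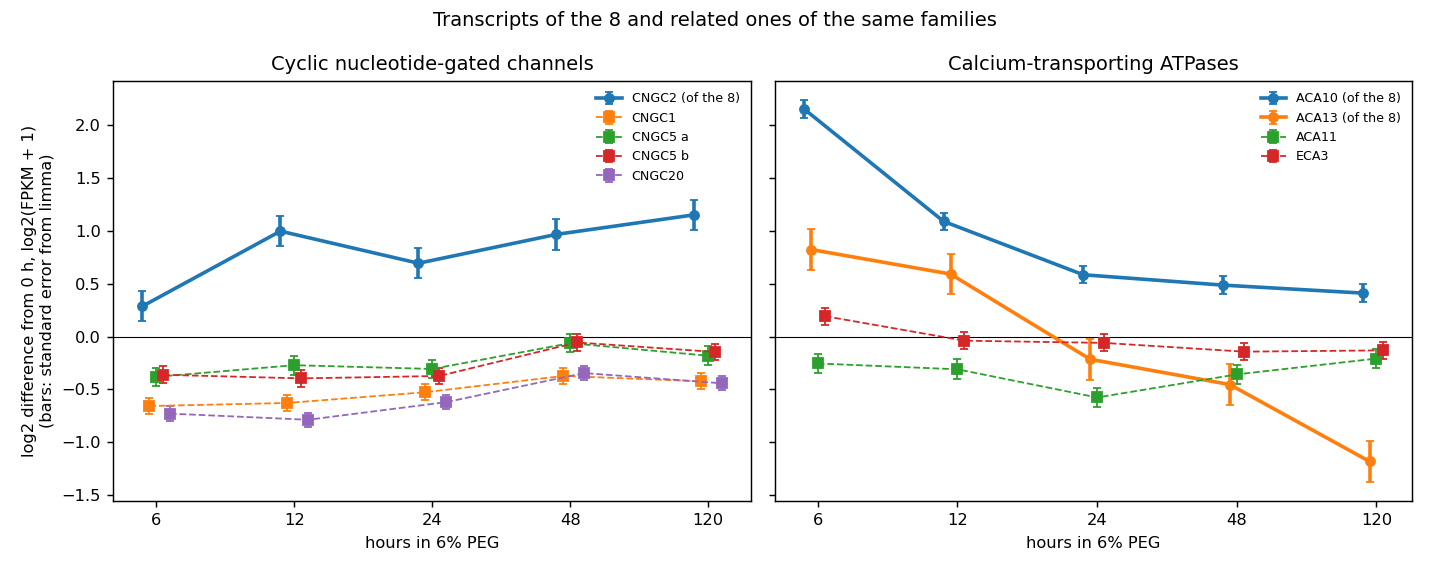
Log2 difference from 0 h on log2(FPKM + 1), with bars for the standard error from limma, against hours in 6% PEG (times evenly spaced) for cyclic nucleotide-gated channels (left) and calcium-transporting ATPases (right), 3 libraries per time. Solid lines are transcripts of the 8, which were listed as DEGs, and dashed lines the related ones, which leave the 8 out. CNGC2 reaches 1.15 while the other channels lie between -0.79 and -0.06, and ACA10 starts at 2.15 while ACA11 and ECA3 lie between -0.58 and 0.19.

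Proton pumps of the vacuole make the gradient that exchangers such as CAX3 draw on. Of 7 transcripts for V-type ATPase subunits and pyrophosphate-energized pumps, 0 were DEGs at any time by limma, and 0 would be with p left unadjusted (under 0.05), which is again close to the share of at most 7% higher and 5.34% lower over all transcripts. The largest difference belonged to the vacuolar pyrophosphatase 1 (f3p60_2830_19587), which was lower at 6 h (-0.28, limma adjusted p = 0.033) and higher at 12 h (0.51, adjusted p = 9.3e-04), at 24 h (0.36) and at 120 h (0.44, or 0.62 without replicate 1 of 120 h). V-ATPase subunit c5 (f11p60_989_11611) was lower at all 5 times, by 0.37 at 6 h (log2 difference -0.37, adjusted p = 1.5e-06). With any fold, 2 of the 7 were higher and 4 lower at 6 h, against 30% and 29.1% of all transcripts. The counts were 2 and 1 at 12 h (25.4% and 29%), 1 and 1 at 24 h (21.5% and 19.9%), 0 and 1 at 48 h (15.9% and 14.7%) and 1 and 2 at 120 h (15.1% and 17.9%). Without both libraries that stood apart they were 1 and 1 at 48 h and 1 and 2 at 120 h.

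For each of the 8, the annotated transcript with the most similar course over the 6 time means was looked up among 532 named candidates, by the root mean square difference of centred log2 values. For each of the 8 a transcript without a name lay closer than any named one, at 0.04 (CNGC2) to 0.15 (CAX3). Among the named, the closest courses were those of chorismate synthase for NCL (0.11) and of protein phosphatase 2C 24 for CNGC2 (0.14). GLR2.7 was closest to the calcium-binding protein KIC (0.14) and GLR3.6 to a thylakoid lumenal protein (0.16). ACA13 was closest to the AAA-ATPase ASD (0.18), ACA10 to the glutathione S-transferase parA (0.19) and CCX1 to an anthocyanidin glucosyltransferase (0.19). CAX3 was closest to the photosystem I subunit psaK (0.26), whose level at 0, 6 and 120 h was 17.6 ± 2.07, 5.32 ± 1.36 and 24.5 ± 3.31 FPKM (SD, n = 3). Likeness over 6 means is a description, and the number of candidates makes a close match to each likely.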

How the data were processed

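Root RNA of 18 pooled samples was sequenced. The authors mapped paired-end reads to PacBio transcripts and deposited FPKM from RSEM 1.2.31; HTSeq 0.6.0 is also named in the submitters' notes. Reads shared by near-identical transcripts may be split between them, which was not tested. Column codes were read as C for 0 h and T1 to T5 for the 5 treated times, with the last digit as the replicate. In a check against the fold changes printed with the study, 5 of 5 codes lay closest to their own time (712 transcripts). This check was a median over transcripts and does not cover each of the 8. The study measured NCL and other genes by qRT-PCR and reports that the results matched its RNA-seq data. Its main list of DEGs prints NCL as lower at 6 h, where it was higher here. It also names f4p60_1851_22830, here CAX3, as a calcium ATPase that was higher at all treated times. CNGC2 is printed there as highest at 24 h and near 0 h at 120 h, whereas its mean here was highest at 120 h, at 2.75 times 0 h. The list names f3p60_1980_22126, here CCX1, as a CAX exchanger with its largest difference at 6 h. Here its largest difference was at 12 h. The values printed for NCL followed the course of CAX3 here, which was lowest at 6 h, still lower at 12 h and near 0 h in its means from 24 h on. Those printed for potassium transporter 5 followed the course of CNGC2 here, with the highest value at 120 h. The cause of these conflicts was not tested.

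FPKM were transformed as log2(FPKM + 1). The 12080 transcripts that reached 1 FPKM in 3 or more libraries were fitted with limma 3.58.1 (R 4.3.3), with time as a factor, 12 residual degrees of freedom, an intensity trend and robust moderation. P-values were adjusted by Benjamini-Hochberg over all transcripts. The fit was tested on simulated data with independent normal noise, which held no floor at low FPKM and no libraries that stood apart. That test therefore does not cover these limits of the data. Folds are ratios of mean FPKM. The study called DEGs from read counts, which were not used here.

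The 8 transcripts and the lists were chosen with earlier results of these data known. Named were all 8, the 6 related transcripts, the 2 proton pumps with the largest difference (0 were called) and the annotated transcript with the closest course to each of the 8. Names come from the annotation at hand. Tables were made with Python 3.11.15 and pandas 2.3.3. Alternatives were another pseudocount, no filter, median ratio scaling, other moderation, fits of 2 times, a replicate block, any fold and each library left out.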

Additional observations from a re-analysis of the deposited data

Results flagged for a closer look

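The change from 0 h differed between 120 h and 6 h in 5 of the 8 transcripts, by limma's test of the difference itself with the fold minimum (2 higher and 3 lower, against 6.13% and 7.71% of all transcripts). The 8 were listed by the study as DEGs from these same treated libraries, so the count is not independent of that choice. The difference was -1.81 for NCL, -1.74 for ACA10, -2.0 for ACA13, 2.39 for CAX3 and 1.08 for GLR2.7, on log2(FPKM + 1) and with 3 libraries at each time. Leaving out each library in turn gave -1.83 to -1.78 for NCL, -1.83 to -1.69 for ACA10, -2.23 to -1.85 for ACA13 and 2.05 to 2.60 for CAX3. GLR2.7 was at 0.72 without replicate 1 of 120 h.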

How the results depend on the processing

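Over the 5 comparisons with 0 h the 8 transcripts had 8 calls higher and 6 lower, and 7 calls between treated times. With 0.1 FPKM added in place of 1 these were 13 higher and 13 between treated times. With any fold they were 22 higher, 10 lower and 20 between treated times, the related pumps and channels had 20 calls and the proton pumps 15 in place of 0, and all transcripts had 26383 calls against 0 h in place of 4556 and 20347 between treated times in place of 2960. In the other alternatives, the removal of single libraries included, the counts of the 8 were 8 to 10 higher, 6 to 7 lower and 6 to 8 between treated times. The sign of some small differences changed with the library left out: CNGC5 f2p34_3601_18468 at 48 h against 0 h ranged from -0.15 to 0.038, GLR3.6 from 12 to 24 h from -0.11 to 0.0388, CCX1 from 24 to 48 h from -0.10 to 0.33 and from 48 to 120 h from -0.37 to 0.0585, and CAX3 from 24 to 48 h from -0.45 to 0.0245 and from 48 to 120 h from -0.20 to 0.44. CAX3 against 0 h changed sign as well, from -0.033 to 0.025 at 24 h, -0.46 to 0.012 at 48 h and -0.36 to 0.19 at 120 h. Without both libraries that stood apart, GLR3.6 from 48 to 120 h was at -0.0292 in place of 0.16. The cause was not tested. No sign was seen that the replicate numbers pair the samples. Deviations of same-numbered libraries had a correlation of -0.13 to 0.10 over 45 pairs, against -0.11 to 0.11 over 90 other pairs. This cannot show whether same-numbered samples were handled together. With the replicate block the 8 had 8 calls higher, 6 lower and 7 between treated times, and all transcripts had 4549 and 2935. Median ratio scaling moved the median of all transcripts by at most 0.0522. Low FPKM limit CCX1, GLR2.7, GLR3.6 and ACA13, which were below 1 FPKM in 2, 5, 2 and 1 of the 18 libraries.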
